A study of Gallus gallus with 3 samples.

Results

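The genes described here are the members of the connective tissue modules Darkgrey and Darkgreen, groups of genes that the study built by weighted co-expression analysis, chosen by the correlation of their UMI counts over the HH29 cells. The members are the Ensembl chicken gene identifiers listed for both modules in the study's module table, without 15 named genes that were set aside, 9 of which the modules hold. This left 39 members (21 of Darkgrey and 18 of Darkgreen) out of 48 published genes, and out of 11442 genes measured in any library. Because the HH29 cells chose the members, every HH29 value below is a description of that choice. The deposited clusters of HH25 and HH31 were also made from these genes, so values there are descriptions too, and no test is given.

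The series holds 3 single-cell RNA-seq libraries of chicken (Gallus gallus) hindlimb autopod, the distal segment that forms the foot and digits, at Hamburger-Hamilton stages HH25, HH29 and HH31. The HH25 library was made from the whole autopod with the 10x Genomics v2 chemistry. The HH29 library was made by Drop-Seq from digits 3 and 4 with the interdigit tissue beside them, in 3 technical replicates. The HH31 library was made from the tip of digit 4 with the 10x chemistry. With 1 library per stage, stage, dissection and platform cannot be told apart, and levels are compared only within a library.

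Loose and dense connective tissue, tendon and muscle connective tissue of the limb arise from the lateral plate mesenchyme, which also gives the cartilage, and the study calls their early cells non-skeletal connective tissue (nsCT). These fibroblast-like cells secrete collagens and small leucine-rich proteoglycans and carry transcription factors that position muscles and tendons. A co-expression module groups genes whose levels vary together over cells, so its members need not share a function or a cell type.

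After removal of cells with extreme counts, 5788, 6806 and 4583 cells were kept at HH25, HH29 and HH31, with a median of 2064, 2946 and 2520 UMIs (unique molecular identifiers, 1 per counted transcript molecule) per cell. The deposited fine clustering places nsCT in HH25 sub-cluster 2 (351 cells), HH29 sub-clusters 4 and 9 (540 and 331 cells) and HH31 sub-cluster 3 (284 cells). The label was checked with 7 nsCT markers that are not members (COL1A2, DCN, CRABP-I, NR2F2, MEOX2, ZFHX3 and HIC1). Their summed level was 3107 UMIs per 1000000 UMIs of the sub-cluster (CPM) in HH25 sub-cluster 2 against 608 to 1481 in the other sub-clusters, 4130 and 2248 in HH29 sub-clusters 4 and 9 against 288 to 1923 elsewhere, and 3613 in HH31 sub-cluster 3 against 681 to 2337 elsewhere. CRABP-I and ZFHX3 belong to the published modules and were set aside. The study reports CRABP-I, COL1A2 and ZFHX3 as nsCT markers of these cells. The summed levels therefore describe the label and are no independent check of it. NR2F2, a nuclear receptor, split the HH29 pair, at 309 CPM in sub-cluster 9 and 78.0 in sub-cluster 4, where the mesenchyme had 100.3. The 10x libraries shared 47 cell barcodes, and the HH29 technical replicates shared 0 to 3.

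For each member the UMIs of all cells in a sub-cluster were summed and given as CPM. Within each library nsCT was set against the mesenchyme. This reference is sub-cluster 1 at HH25, sub-clusters 5, 13 and 16 at HH29, and sub-clusters 7, 9 and 11 at HH31. Sub-clusters 5 and 16 at HH29 and 7, 9 and 11 at HH31 are named cycling mesenchyme. A gene is called higher or lower where the fold difference was at least 2 and the exact 95% interval of the log2 ratio excluded 0, with at least 20 UMIs in both populations together. Brackets give that interval for a log2 ratio and an exact Poisson interval for a CPM. All intervals cover counting error only, since cells of 1 library are not replicates.

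**Figure D1:**
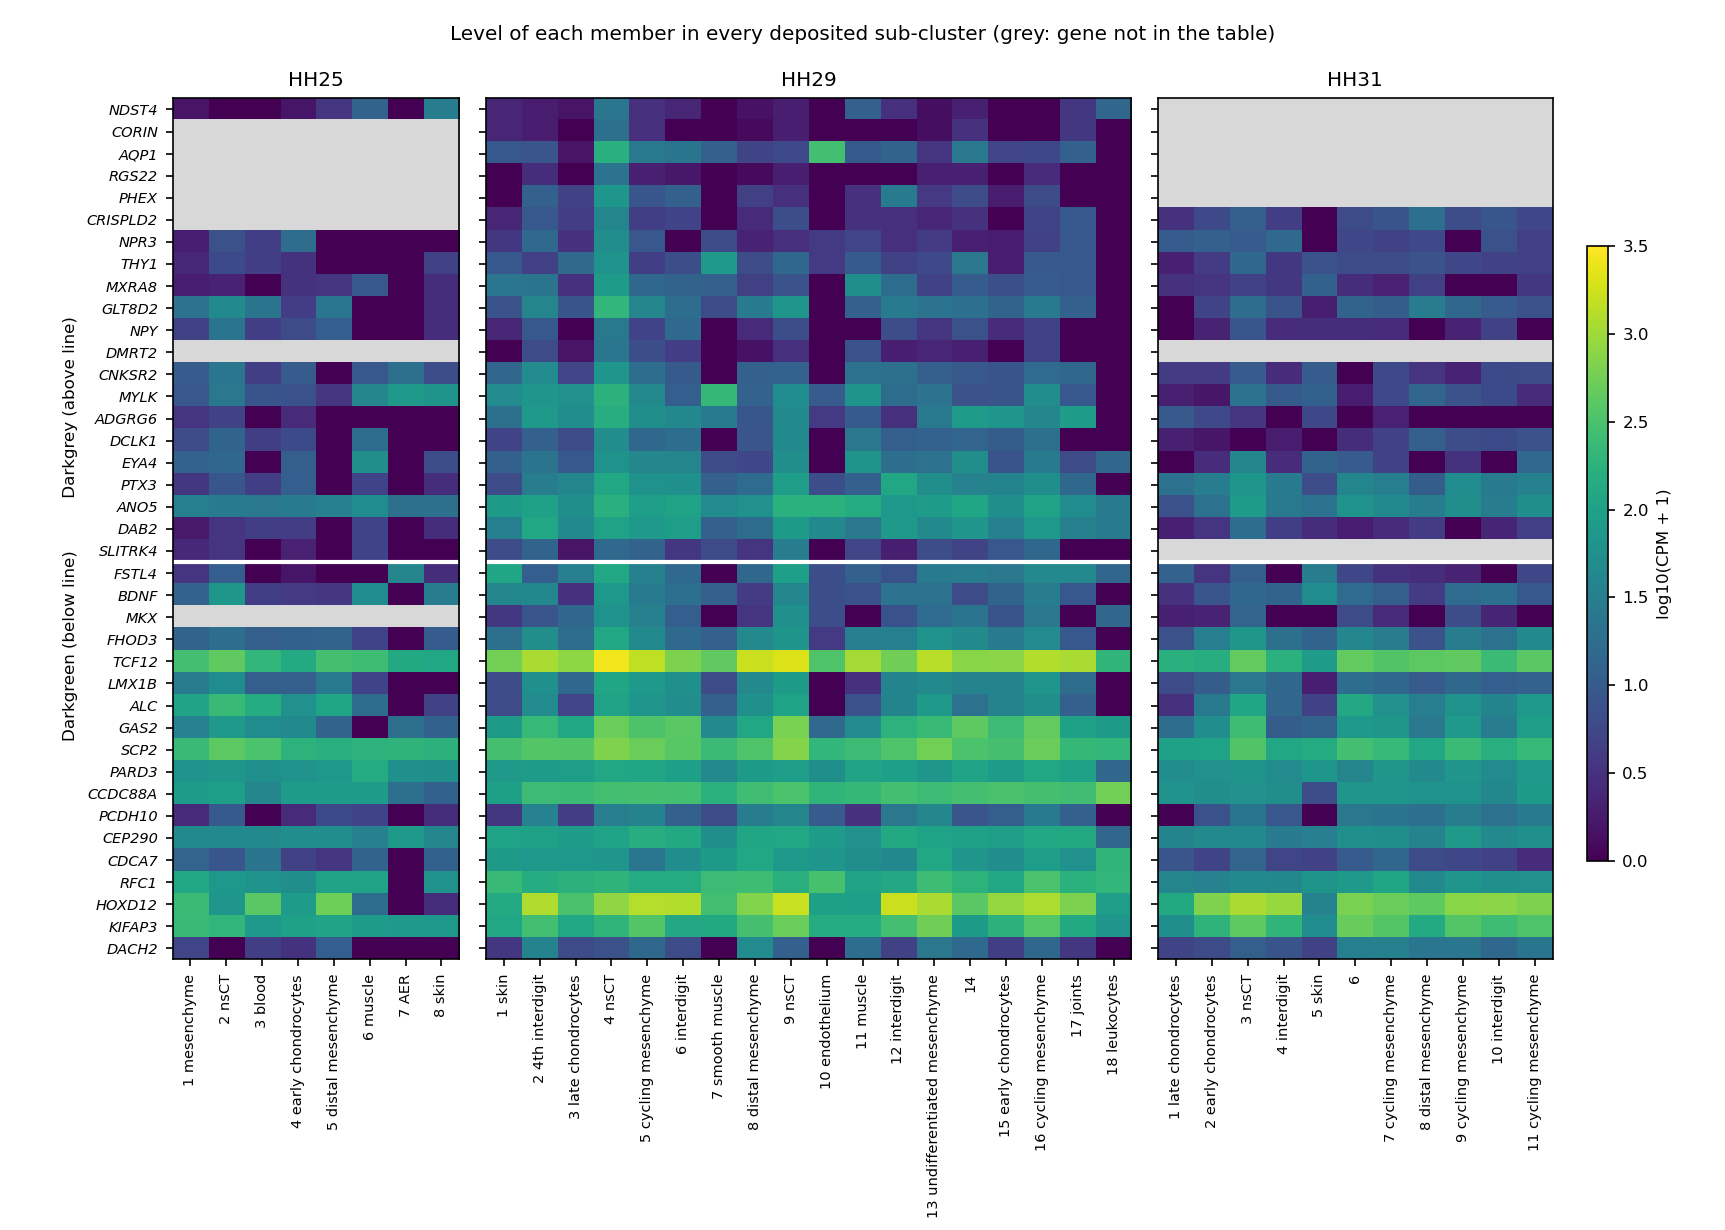
Level of each of the 39 members (rows, Darkgrey above the white line and Darkgreen below) in every deposited sub-cluster (columns) of the 3 libraries, as log10 of CPM + 1, with grey where a gene has no column in that library's table. The column of HH29 sub-cluster 4 is brighter than the mesenchyme columns for nearly every Darkgrey row, while Darkgreen rows such as TCF12, SCP2 and HOXD12 are bright across many sub-clusters.

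At HH29 the members of Darkgrey were concentrated in 1 of the pair of nsCT sub-clusters, and those of Darkgreen were spread over both and over the mesenchyme. Of 21 Darkgrey members, 18 were called higher in sub-cluster 4 than in the mesenchyme, where 6.02% of all tested genes were, and the median log2 ratio was 2.92 against 0.01 over all genes tested. CORIN, NDST4 and RGS22 are among the 18 and enter the median. They reached the minimum of UMIs for a test only through sub-cluster 4, the population in which they were high. With so few mesenchyme UMIs, these members could not have been tested without a high level there, and they were not tested in sub-cluster 9. In sub-cluster 9, 18 Darkgrey members could be tested and 4 were called higher (GLT8D2, THY1, DCLK1 and SLITRK4), where 3.53% of all genes were, with a median of 0.55. Of 18 Darkgreen members, 4 were called higher in sub-cluster 4 (FHOD3, MKX, BDNF and FSTL4, median 0.33). In sub-cluster 9, 2 were (MKX and FSTL4, median 0.35). Among the other modules counted, calls in sub-cluster 4 ran from 0 of 51 tested genes (Green, mitotic) to 31 of 77 (Blue, skin). Blue, Brown (endothelial, 25 of 63), Black (leukocyte, 7 of 26) and Midnightblue (interdigit, 4 of 17) had larger shares called higher there than Darkgreen. KIFAP3 and DACH2 were called lower in sub-cluster 4, where 3.67% of all genes were. No member was called lower in sub-cluster 9, where 3.76% were, but this depended on the setting. With clusters rebuilt without the genes of both modules AQP1 (-2.06), PHEX (-2.33) and DACH2 (-1.90) were called lower there. With all other cells as the reference, which then includes nsCT sub-cluster 4, AQP1, MXRA8 and PHEX were called lower. As a mean over cells PHEX, DMRT2 and DACH2 were.

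**Figure D2:**
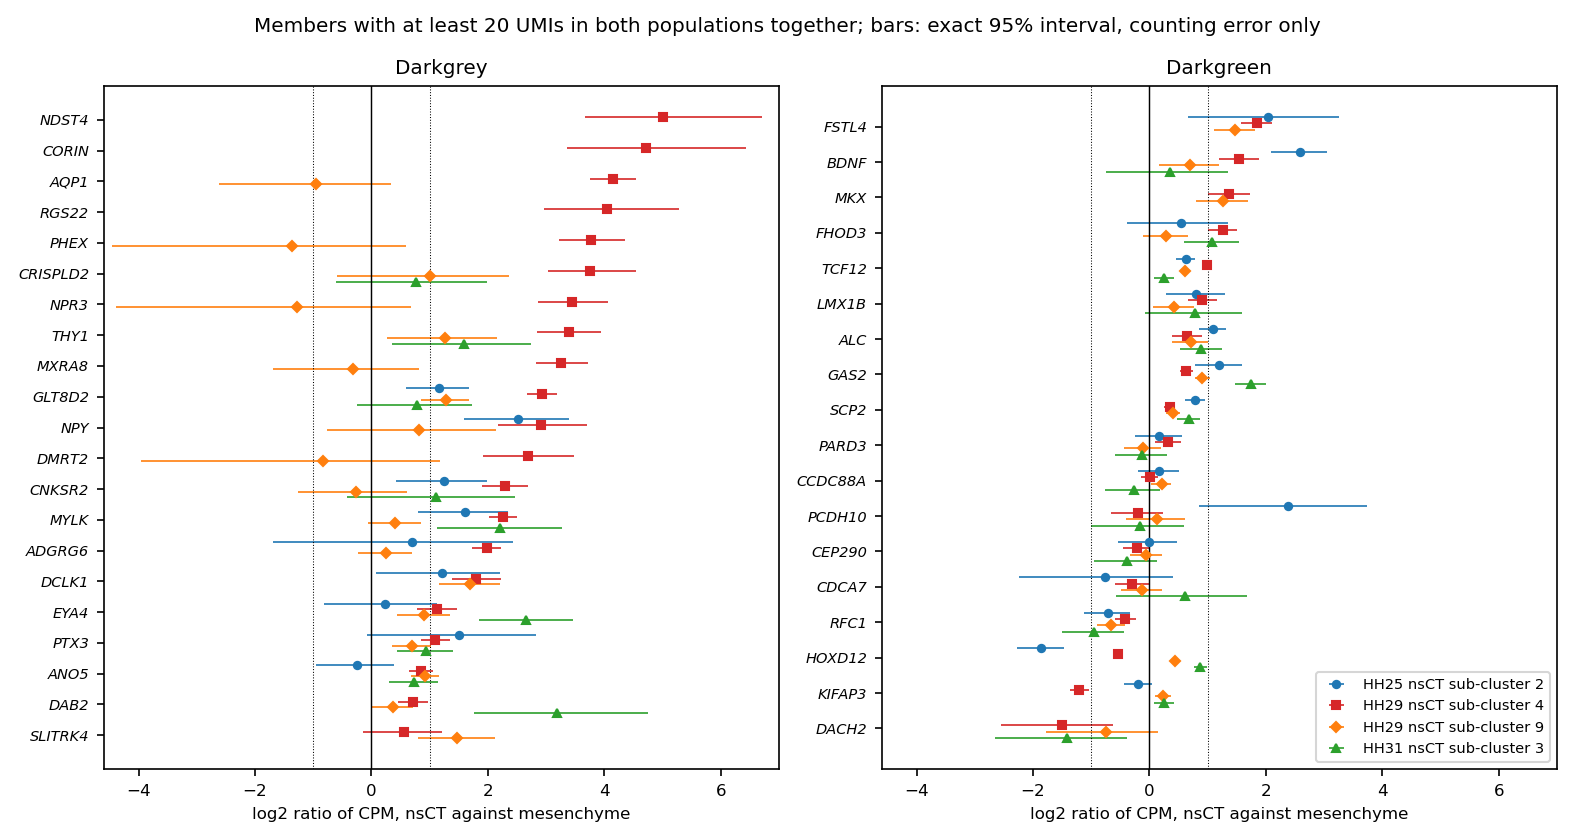
Log2 ratio of CPM in nsCT against the mesenchyme of the same library for members with at least 20 UMIs in both populations together (rows) in the 4 nsCT sub-clusters, with symbols and colours for the sub-clusters and bars for the exact 95% interval of counting error. In HH29 sub-cluster 4 the ratios of Darkgrey members run from 0.55 (SLITRK4) to 5.01 (NDST4), and those of Darkgreen members from -1.51 (DACH2) to 1.84 (FSTL4).

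Of the Darkgrey members at the cell surface, AQP1, the water channel aquaporin 1, was at 167 CPM in sub-cluster 4, at 4.88 in sub-cluster 9 and at 9.47 in the mesenchyme, a log2 ratio to the mesenchyme of 4.14 [3.76, 4.55] in sub-cluster 4. Its level was highest in the endothelium (sub-cluster 10), at 284 CPM [230, 347]. In the 3 technical replicates AQP1 was at 151, 189 and 158 CPM in sub-cluster 4 and at 8.15, 10.9 and 9.40 in the mesenchyme, so these ranges lay apart. AQP1 was thus high in the endothelium and in 1 nsCT sub-cluster. Summed endothelial markers (3 of 5 listed genes have an identifier) were at 1598 CPM in the endothelium, 5.16 in sub-cluster 4, with none of the 3 at 0, and 4.18 in the mesenchyme.

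PHEX, an endopeptidase that takes part in phosphate handling and mineralisation, was at 68.3 CPM in sub-cluster 4, at 1.95 in sub-cluster 9 and at 5.01 in the mesenchyme, with 26.9 in interdigit sub-cluster 12 as the next highest level. NPR3, the clearance receptor of natriuretic peptides, was at 51.6, 1.95 and 4.73 CPM in the same populations. CORIN, the protease that activates pro-atrial natriuretic peptide, was at 18.4 CPM in sub-cluster 4 (32 UMIs) against 0.696 in the mesenchyme (5 UMIs). NPR3 and CORIN were called higher in sub-cluster 4, with log2 ratios of 3.45 [2.86, 4.06] and 4.72 [3.35, 6.44]. They are the only genes of a list of 8 for the natriuretic peptide system that have an identifier at HH29, and both are members, so the list adds nothing to the members' own values. In the technical replicates NPR3 was at 41.9, 76.1 and 25.6 CPM in sub-cluster 4 and CORIN at 11.96, 19.0 and 28.1. Each of these values lay above every replicate of the mesenchyme, which ran from 2.51 to 6.02 CPM for NPR3 and from 0 to 1.42 for CORIN.

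Further surface and secreted members were also highest in sub-cluster 4. MXRA8, a matrix-remodelling-associated surface protein, was at 81.4 CPM in sub-cluster 4, at 6.83 in sub-cluster 9 and at 8.49 in the mesenchyme, and the muscle sub-cluster (11) came next with 54.2. CRISPLD2, a secreted cysteine-rich protein, was at 39.6, 5.85 and 2.92 CPM. ADGRG6, an adhesion G-protein-coupled receptor, was at 149, 44.9 and 37.9 CPM, with sub-cluster 14, which has no name here, next at 82.7. MXRA8, CRISPLD2 and ADGRG6 were called higher in sub-cluster 4 and not in sub-cluster 9. CRISPLD2 was close to a call there, at a log2 ratio of 1.001 [-0.60, 2.36] on 6 UMIs with its replicates (4.66 to 7.30 CPM) above those of the mesenchyme (1.45 to 3.90), and it was called (1.55) with clusters rebuilt without the genes of both modules. THY1 (CD90), a GPI-anchored surface glycoprotein used as a fibroblast marker, was at 59.6 CPM in sub-cluster 4, at 13.7 in sub-cluster 9 and at 5.71 in the mesenchyme and was called higher in both. Its highest level was that of the smooth muscle sub-cluster 7, 75.3 CPM [41.2, 126], an interval that holds the level of sub-cluster 4.

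GLT8D2, which encodes a putative glycosyltransferase, was at 208 CPM [187, 230] in sub-cluster 4, at 66.3 in sub-cluster 9 and at 27.4 in the mesenchyme. Across the technical replicates it was at 199, 233 and 179 CPM in sub-cluster 4, at 73.0, 52.6 and 79.2 in sub-cluster 9, and 25.1, 31.9 and 23.8 in the mesenchyme, with no overlap between the 3 populations. The fold difference to the mesenchyme was 7.57 in sub-cluster 4 and 2.42 in the other nsCT sub-cluster. After each cell was thinned to 1000 UMIs, 99 of 540 cells of sub-cluster 4 held a GLT8D2 UMI (18.3% [15.2, 21.9], Clopper-Pearson), against 19 of 331 in sub-cluster 9 (5.74%) and 21 of 848 in undifferentiated mesenchyme sub-cluster 13 (2.48%). In skin it was 0 of 182 cells. The floor of 3 counts used for a 0 gives 1.65% at that depth, which is not a Clopper-Pearson limit. At the deposited depth the shares were 38.9% in sub-cluster 4 and 2.20% in skin, with median depths of 2828 and 3234 UMIs per cell. NDST4, an enzyme that modifies heparan sulfate, was at 22.4 CPM in sub-cluster 4 (39 UMIs) and 0.696 in the mesenchyme (5 UMIs), the largest ratio of the module at 5.01 [3.66, 6.71]. It reached the minimum of UMIs for a test only through sub-cluster 4.

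Members that act inside the cell were less uniform. CNKSR2, a scaffold of the Ras pathway, was at 68.8 CPM in sub-cluster 4 and at 11.7 in sub-cluster 9, with the 4th interdigit (sub-cluster 2) at 48.4. MYLK, the myosin light chain kinase, was at 176 CPM in sub-cluster 4, at 48.8 in sub-cluster 9 and at 36.9 in the mesenchyme, and its highest level was again that of smooth muscle, 215 CPM [154, 293]. Summed smooth muscle markers (2 of 4 listed genes) were at 667 CPM in smooth muscle and at 9.75 in sub-cluster 4. Their part in the MYLK value was not tested. RGS22, a regulator of G-protein signalling, and DMRT2, a transcription factor known from somite and myotome development, were low throughout, at 20.6 and 22.4 CPM in sub-cluster 4 (36 and 39 UMIs) and 1.25 and 3.48 in the mesenchyme.

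NPY, which encodes neuropeptide Y, was at 25.2 CPM in sub-cluster 4, at 5.85 in sub-cluster 9 and at 3.34 in the mesenchyme. A smaller set of Darkgrey members was near the same level in both nsCT sub-clusters. DCLK1, a kinase that binds microtubules, was at 50.5 CPM in sub-cluster 4, at 46.8 in sub-cluster 9 and at 14.5 in the mesenchyme. EYA4, a transcriptional coactivator with phosphatase activity, was at 61.4, 52.7 and 28.1 CPM, and muscle sub-cluster 11 was at 62.8 (none of the 5 listed muscle markers had an identifier, so muscle RNA in nsCT was not tested). PTX3, a secreted long pentraxin, was at 119, 89.7 and 55.7 CPM, with interdigit sub-cluster 12 at 124. ANO5, a member of the anoctamin family, and DAB2, an endocytic adaptor, exceeded the mesenchyme by less than 2-fold in both, with log2 ratios of 0.85 and 0.92 for ANO5 and 0.72 and 0.37 for DAB2, and had their highest levels in the endothelium (174 CPM) and the 4th interdigit (124 CPM). SLITRK4, a transmembrane protein known from neurons, went the other way, at 14.9 CPM in sub-cluster 4, at 28.3 in sub-cluster 9 and at 10.2 in the mesenchyme.

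Set directly against sub-cluster 9, sub-cluster 4 was higher for 15 of 21 Darkgrey members, where 4.63% of all genes were called higher, and lower for none, where 2.37% were called lower. The median log2 ratio was 2.13. Members with few UMIs in sub-cluster 9, among them CORIN, NDST4 and RGS22, reached the minimum of UMIs for this comparison only through sub-cluster 4. The 6 that were not called were PTX3, EYA4, DCLK1, DAB2, ANO5 and SLITRK4, whose log2 ratios ran from -0.92 [-1.75, -0.11] for SLITRK4 to 0.41 [0.05, 0.78] for PTX3. Of Darkgreen none was called higher and only KIFAP3 lower, at -1.44 [-1.64, -1.24], and the median was -0.06. Most Darkgrey members were thus higher in sub-cluster 4 than in sub-cluster 9, and the rest differed by less than 2-fold.

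**Figure D3:**
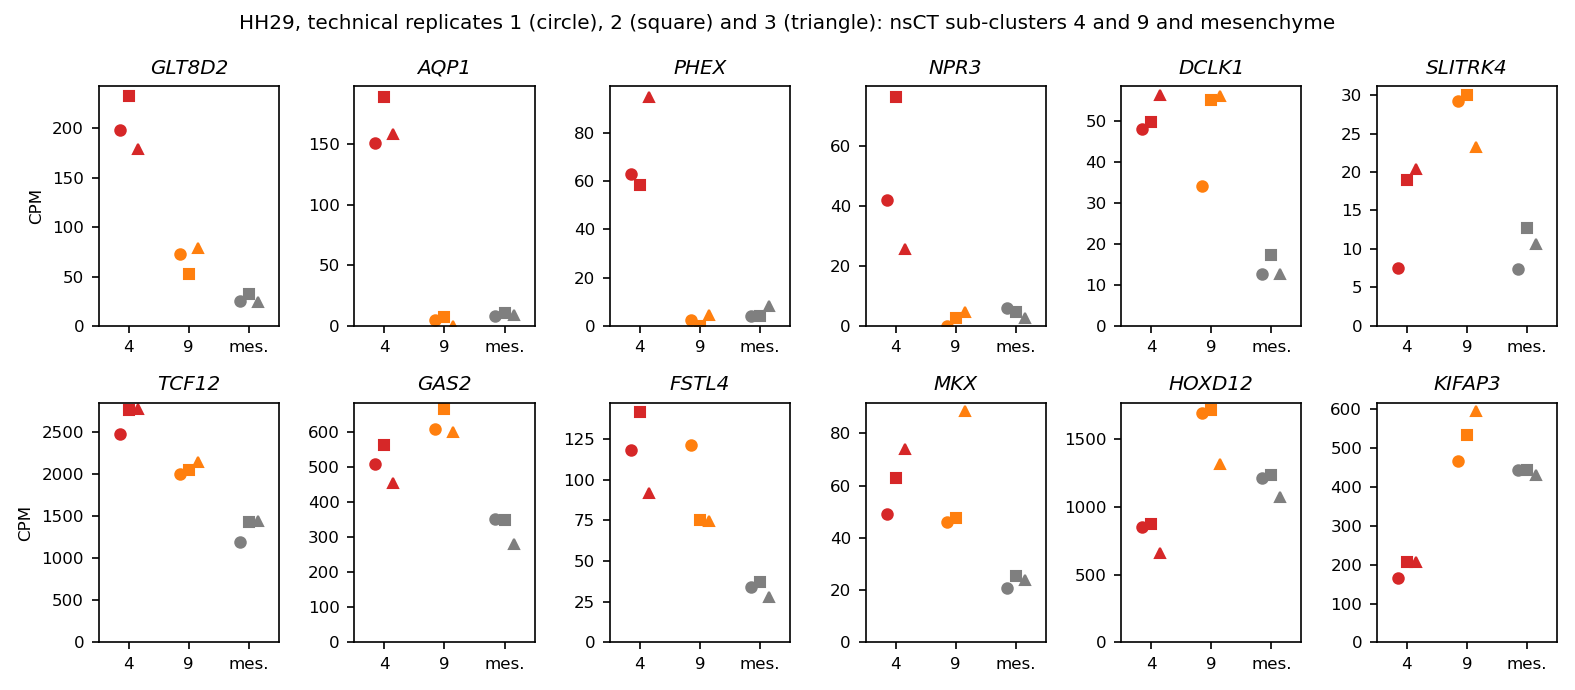
CPM of members in the 3 technical replicates of HH29, for nsCT sub-clusters 4 and 9 and the mesenchyme. For GLT8D2 the replicates of sub-cluster 4 (179 to 233 CPM) lie above those of sub-cluster 9 (52.6 to 79.2), while for HOXD12 they lie below (662 to 875 against 1318 to 1718).

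The technical replicates repeated the order for Darkgrey. All 21 members were above the mesenchyme of their own replicate in sub-cluster 4 in all 3 replicates, and for 20 the ranges did not overlap. The exception was SLITRK4, at 7.48, 19.0 and 20.5 CPM in sub-cluster 4 against 7.44, 12.7 and 10.7 in the mesenchyme. In sub-cluster 9, 10 of 21 members were above in all 3 replicates. For Darkgreen the number was 11 of 18 in each nsCT sub-cluster, with ranges apart for 8 in sub-cluster 4 and for 9 in sub-cluster 9. The replicates belong to the same sample and took part in building the modules, so they are not independent samples and show technical spread only. The same counts were not made over all genes. How many other genes would separate in this way is therefore not known.

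Of the transcription factors and cofactors of Darkgreen, TCF12 and HOXD12 had high levels over much of the HH29 mesenchyme. MKX, LMX1B and DACH2 were far lower there. TCF12, a basic helix-loop-helix E protein, was at 2652 CPM in HH29 sub-cluster 4, 2050 in sub-cluster 9 and 1339 in the mesenchyme, a log2 ratio of 0.99 [0.93, 1.04] for sub-cluster 4, just under the 2-fold limit, and 0.61 for sub-cluster 9. Among cells thinned to 1000 UMIs, 88.7% of sub-cluster 4, 80.1% of sub-cluster 9, 68.2% of sub-cluster 13 and 41.2% of skin held a TCF12 UMI. At HH25 it was at 443 CPM in nsCT and 288 in the mesenchyme and at HH31 at 457 and 385. The ratio in sub-cluster 4 passed 2-fold with all other cells as the reference (1.17), without ribosomal and mitochondrial UMIs (1.02), as a mean over cells (1.01) and without technical replicate 2 (1.01). The share of cells that free RNA alone would give for TCF12 was not measured.

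MKX (Mohawk), a homeobox factor of tendon development, was at 60.2 CPM in sub-cluster 4, at 55.6 in sub-cluster 9 and at 23.3 in the mesenchyme at HH29. The ratios were 1.37 [1.01, 1.73] and 1.26 [0.80, 1.70], and the technical replicates were at 49.3, 62.9 and 74.1 CPM in sub-cluster 4, at 46.2, 47.6 and 88.5 in sub-cluster 9, and 20.9, 25.3 and 23.8 in the mesenchyme, so the nsCT sub-clusters overlapped each other and not the mesenchyme. At HH31 MKX had 10 UMIs in nsCT and 8 in the mesenchyme, too few for a call. LMX1B, the LIM homeobox factor that specifies the dorsal limb, had its highest level in nsCT in each library but stayed under 2-fold against the mesenchyme, at 49.0 and 28.1 CPM at HH25 (log2 0.80 [0.28, 1.29]), 112 in sub-cluster 4, at 80.0 in sub-cluster 9 and at 59.5 in the mesenchyme at HH29, and 23.2 and 13.4 at HH31. DACH2, a Dachshund-family cofactor, went the other way. It was at 6.31 CPM in sub-cluster 4, at 10.7 in sub-cluster 9, 17.96 in the mesenchyme and 47.5 in the distal mesenchyme at HH29, and it was called lower in sub-cluster 4 (-1.51 [-2.55, -0.62]). At HH25 it had 0 UMIs in nsCT and 41 in the mesenchyme, with no call.

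HOXD12, a posterior Hox gene of the distal limb, stood out because its order between nsCT and mesenchyme differed from library to library. At HH25 it was at 67.8 CPM in nsCT and 246 in the mesenchyme, with 532 in the distal mesenchyme, and was called lower in nsCT at -1.86 [-2.27, -1.47], where 3.69% of all genes were. At HH29 it was at 819 CPM in sub-cluster 4, at 1624 in sub-cluster 9 and at 1191 in the mesenchyme, log2 ratios of -0.54 [-0.62, -0.46] and 0.45 [0.37, 0.52]. At HH31 it was at 1122 CPM in nsCT, above the 907 of interdigit sub-cluster 4 and the 613 of the mesenchyme (0.87 [0.76, 0.99]). Nowhere did an nsCT sub-cluster reach 2-fold above the mesenchyme, though HH31 nsCT did against all other cells (1.04). After thinning, 5.70% of nsCT cells and 16.3% of mesenchyme cells held a HOXD12 UMI at HH25, and 62.3% of nsCT cells against 3.46% of skin cells did at HH31.

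The genes of a distal Hox list that includes HOXD12 were in part lower with it. At HH25, 4 of 5 tested members of that list were called lower in nsCT, where 3.69% of all genes were: HOXA13 (-2.20), HOXD11 (-1.45), HOXD12 and HOXD13 (-2.96). HOXA11 was at 288 CPM against 236. At HH29 only HOXD11 was called lower, in sub-cluster 4 (-1.14), and at HH31 none of 5 was called in either direction. Markers of the distal mesenchyme (4 genes) were also low in nsCT in every library, 3 of 4 called lower at HH25, 4 and 2 of 4 at HH29 and 3 of 4 at HH31, so those markers stayed low at HH31 where HOXD12 did not. Over all genes the shares called lower were 3.67% and 3.76% in HH29 sub-clusters 4 and 9 and 8.23% at HH31. The HH25 blood sub-cluster was at 406 CPM for HOXD12, with red blood cell markers at 7500 CPM, nsCT markers at 865 and distal mesenchyme markers at 620. The part of this mixture in its level was not tested.

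**Figure D4:**
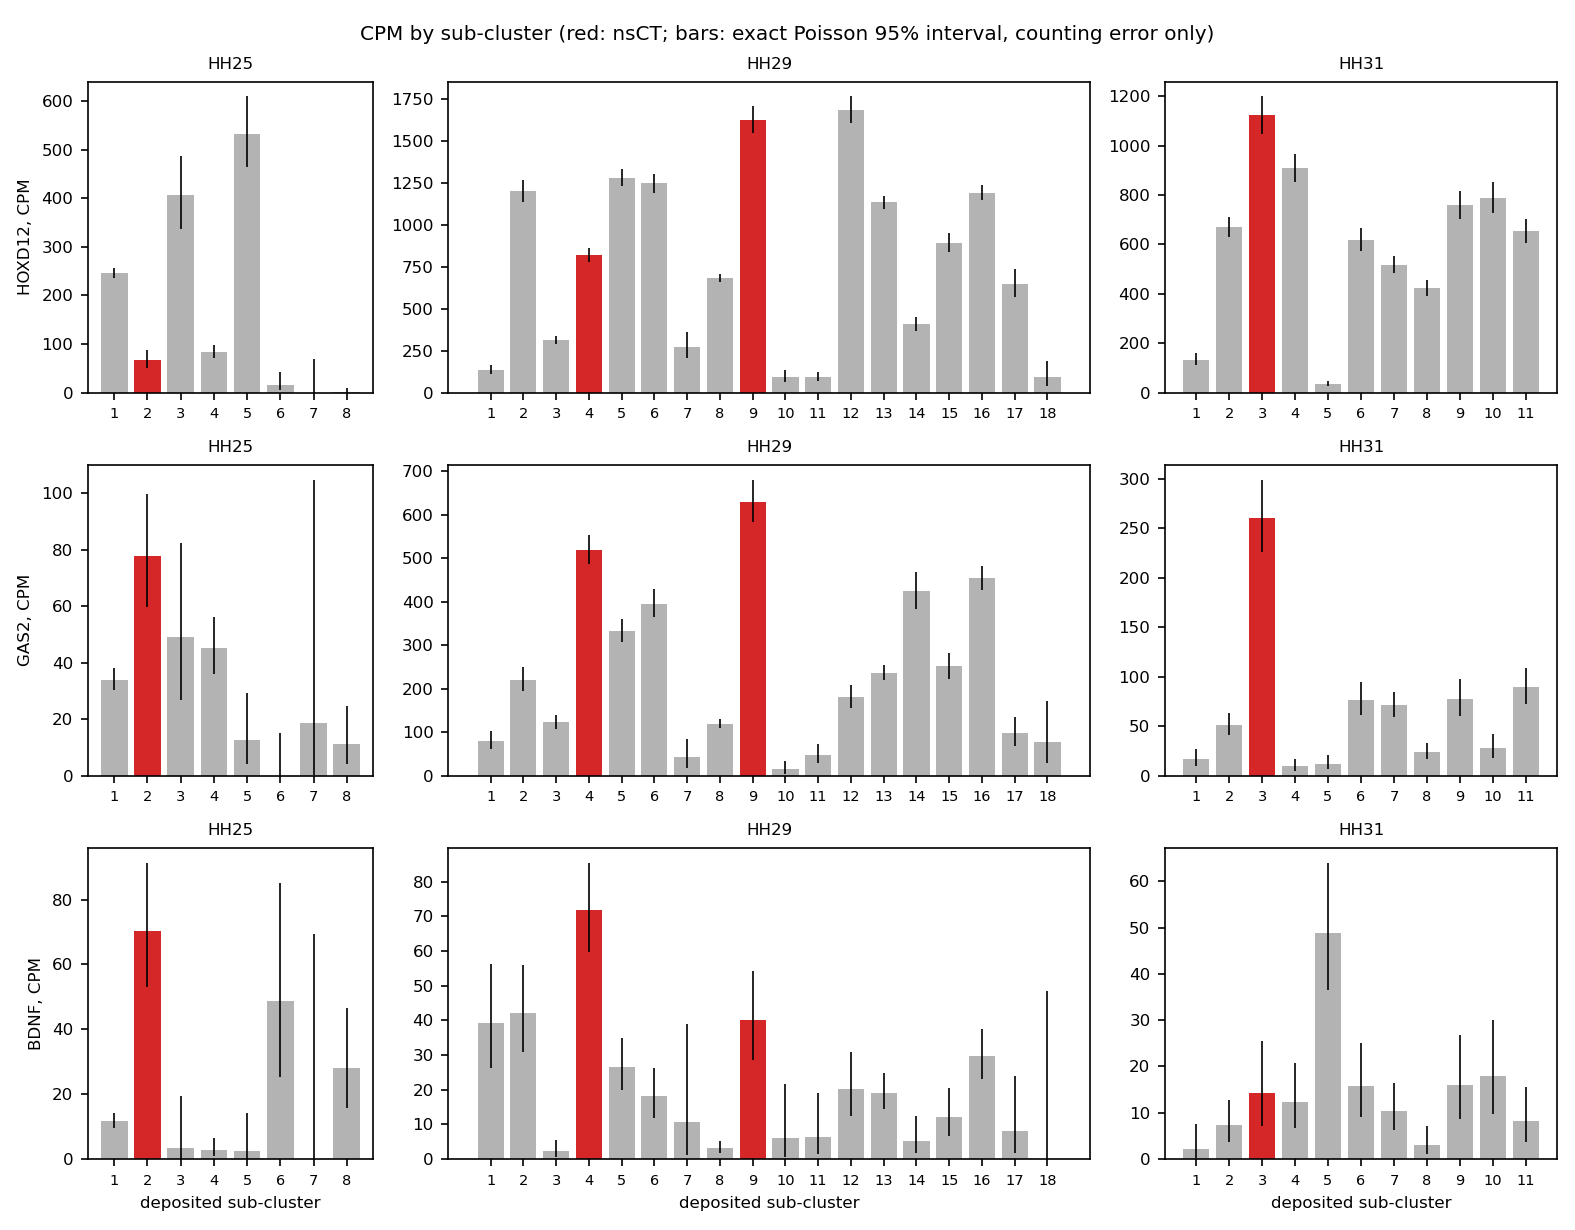
CPM of HOXD12, GAS2 and BDNF in every sub-cluster of each library, with nsCT in red and bars for the exact Poisson 95% interval of counting error. HOXD12 in nsCT is low at HH25 (67.8) and highest of all sub-clusters at HH31 (1122), GAS2 is highest in nsCT at HH31 (261), and BDNF has its HH31 maximum in skin (48.8).

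Of the secreted members of Darkgreen, BDNF, a neurotrophin, was at 70.4 CPM (56 UMIs) in nsCT and 11.8 in the mesenchyme at HH25, a log2 ratio of 2.58 [2.09, 3.05] and a fold of 5.97. It was called higher there together with 4 other Darkgreen members, 5 of 17 tested, where 2.66% of all genes were. At HH29 BDNF was at 71.7 CPM in sub-cluster 4, at 40.0 in sub-cluster 9 and at 24.6 in the mesenchyme, and the replicates of sub-cluster 4 (64.3, 83.4 and 63.9) lay above those of the mesenchyme (31.2, 22.8 and 16.3). At HH31 it was at 14.2 CPM in nsCT and 11.1 in the mesenchyme, a ratio of 0.36 [-0.75, 1.34], and its highest level was in skin, 48.8 CPM [36.4, 64.0], apart from all other sub-clusters. In thinned HH25 cells 5.98% of nsCT, 1.21% of mesenchyme and 4.35% of skin held a BDNF UMI, and the intervals of nsCT and skin overlapped..

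FSTL4, a follistatin-like secreted protein, was at 10.1 CPM (8 UMIs) in nsCT and 2.44 in the mesenchyme at HH25 (called, but at 0.98 with rebuilt clusters), and at 122 CPM in sub-cluster 4, at 93.6 in sub-cluster 9 and at 34.0 in the mesenchyme at HH29. HH29 skin was at 113 CPM, close to sub-cluster 4 with its interval of [106, 139]. At HH31 skin was again high (29.1 CPM), with nsCT at 10.3 (8 UMIs) and the mesenchyme at 2.64 (10 UMIs), too few UMIs for a call. At HH25 skin was at 1.88 CPM for FSTL4 (1 UMI), and BDNF was at 48.8 CPM in muscle and 28.2 in skin, so the levels in skin were not alike in all libraries. Summed skin markers (3 of 7 listed genes at HH29 and 4 at HH31) were at 5.74 CPM in HH29 sub-cluster 4, 51.7 in sub-cluster 9 and 14.9 in the mesenchyme, against 1442 in skin, and at 40.0 CPM in HH31 nsCT against 16.1 in the mesenchyme and 941 in skin. Of 2 skin markers tested, EPCAM was called higher in HH29 sub-cluster 9 (3.53% of all genes). In HH31 nsCT 2 of 2 tested were, EPCAM among them (2.69% of all genes). Their part in the FSTL4 and BDNF values was not tested. PCDH10, a protocadherin, was called higher at HH25 (2.37 [0.85, 3.73], 7 UMIs in nsCT) and lay near the mesenchyme at HH29 (-0.20 and 0.12) and HH31 (-0.16).

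Of the cytoskeletal members, GAS2, which cross-links actin and microtubules, had its highest level in nsCT in all libraries. It was at 77.9 CPM in nsCT and 34.1 in the mesenchyme at HH25 (1.19 [0.78, 1.59]), at 519 in sub-cluster 4, at 630 in sub-cluster 9 and at 335 in the mesenchyme at HH29 (0.63 and 0.91), and at 261 in nsCT and 78.0 in the mesenchyme at HH31 (1.74, a fold of 3.34). The next sub-cluster at HH31 was at 89.9 CPM, so nsCT stood apart, with a UMI in 21.1% of thinned nsCT cells and 2.02% of skin cells. FHOD3, a formin that assembles actin filaments, was at 17.6 and 12.1 CPM at HH25, at 126 in sub-cluster 4, at 64.4 in sub-cluster 9 and at 52.8 in the mesenchyme at HH29, and at 71.0 and 33.7 at HH31. It was called higher in HH29 sub-cluster 4 (1.26) and HH31 nsCT (1.07 [0.59, 1.54]). The first of these calls ended without technical replicate 2 (0.98) and in cells low in cycling scores (0.85), and the second, at 0.9992, with rebuilt clusters.

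KIFAP3, the accessory subunit of the kinesin-2 motor, separated the nsCT sub-clusters of HH29 in the direction opposite to Darkgrey. It was at 192 CPM in sub-cluster 4, at 520 in sub-cluster 9 and at 441 in the mesenchyme, and was called lower in sub-cluster 4 at -1.20 [-1.37, -1.04]. The call ended with all other cells as the reference (-0.62) and with rebuilt clusters (-0.88). The replicates were at 166, 208 and 207 CPM in sub-cluster 4, at 467, 533 and 596 in sub-cluster 9, and 443, 444 and 430 in the mesenchyme, so sub-cluster 4 was below both without overlap. At HH25 it was at 197 and 225 CPM (-0.19 [-0.43, 0.04]) and at HH31 at 426 and 358 (0.25 [0.07, 0.43]).

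The remaining Darkgreen members lay nearer to the mesenchyme. SCP2, a sterol carrier protein, was above the mesenchyme by log2 0.78 at HH25, 0.35 and 0.41 at HH29 and 0.68 at HH31. ALC, for which the files give only the symbol, was called higher at HH25 (231 and 109 CPM, 1.08 [0.85, 1.31]) and was at 0.64 and 0.71 at HH29 and 0.89 at HH31. Both were thus above the mesenchyme in every library, mostly by less than 2-fold. The HH25 call of ALC ended with rebuilt clusters (0.82). With all other cells as the reference ALC was called higher in HH29 sub-clusters 4 (1.09) and 9 (1.11) and at HH31 (1.45). CCDC88A (girdin, an actin-binding protein), PARD3 (a polarity protein) and CEP290 (a protein of the ciliary transition zone) had log2 ratios between -0.39 and 0.32 in all 4 comparisons. At HH29 their highest levels were in leukocytes (576 CPM), cycling mesenchyme sub-cluster 16 (125 CPM) and cycling mesenchyme sub-cluster 5 (152 CPM). In cells low in cycling scores CCDC88A was called lower in HH25 nsCT (-1.43).

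RFC1, the large subunit of the clamp loader of DNA replication, was below the mesenchyme in each comparison, at -0.71 [-1.12, -0.33] for HH25, -0.41 and -0.66 for HH29 and -0.95 for HH31, and CDCA7, associated with cell division, ran from -0.76 to 0.61. Neither was called. RFC1 was called lower in cells low in cycling scores at HH31 (-1.24) and in HH29 sub-cluster 9 (-1.13), and at HH31 as a mean over cells (-1.01), while it was at -0.84 at HH25 and -0.44 in HH29 sub-cluster 4 in cells low in cycling scores. Cycling markers (4 genes) were lower in nsCT than in the mesenchyme in every library. Summed levels were 785 against 1451 CPM at HH25, 1289 and 1286 against 3198 at HH29 and 256 against 1576 at HH31. At HH29 and HH31 the reference holds sub-clusters named cycling, so a lower level there is set in part by that choice. Outside nsCT and the reference, summed levels ran from 747 to 2818 CPM at HH29 and from 143 to 725 at HH31.

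The libraries that took no part in choosing the modules carried part of the pattern. At HH25, 32 members had a column in the table (15 and 17), and AQP1, PHEX, CORIN, CRISPLD2, RGS22, DMRT2 and MKX were not analysed there. The tables hold genes with a UMI in at least 15 cells at HH25 and HH31 and 30 cells at HH29. Of 9 Darkgrey members tested at HH25, 5 were called higher (2.66% of all genes) and none lower (3.69%), with a median log2 ratio of 1.21 against -0.12 over all genes. GLT8D2 was at 45.2 and 20.3 CPM in nsCT and mesenchyme, MYLK at 23.9 and 7.86, CNKSR2 at 22.6 and 9.55, DCLK1 at 12.6 and 5.41, and NPY at 21.4 and 3.72. These rested on 10 to 36 UMIs in nsCT, and the intervals of DCLK1 ([0.07, 2.21]) and CNKSR2 ([0.42, 1.98]) reach close to 0. For Darkgreen the 5 called higher were GAS2, ALC, BDNF, FSTL4 and PCDH10 (median 0.54). With clusters rebuilt without the genes of both modules 3 Darkgrey and 2 Darkgreen members were called at HH25. With only cells low in cycling scores 1 and 2 were, and the 1 of Darkgrey was EYA4, which is not among the 5. The share of all genes called under these settings is not given here.

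Not all members were highest in nsCT at HH25. EYA4, at 13.8 CPM in nsCT and 11.8 in the mesenchyme, was highest in muscle (52.9 CPM [28.2, 90.4]), and MYLK in the apical ridge (75.3) and skin (63.9). NPR3 and PTX3 were highest in early chondrocytes (16.8 and 10.1 CPM) and NDST4 in skin (28.2 CPM, with 0 UMIs in nsCT). ADGRG6, THY1, MXRA8, DAB2 and SLITRK4 had 1 to 4 UMIs in nsCT. ANO5 was at 26.4 CPM in nsCT and 31.3 in the mesenchyme. ANO5, DCLK1 and PARD3 were highest in muscle (48.8, 16.3 and 142 CPM) and CDCA7 in blood (21.0). CEP290 and FSTL4 were highest in the apical ridge (75.3 and 37.7 CPM) and DACH2 in the distal mesenchyme (10.1). These levels rested on 4 UMIs for DCLK1, CEP290 and DACH2, 6 for CDCA7 and 2 for FSTL4. The apical ridge level of MYLK also rested on 4 UMIs. Of the members highest outside nsCT at HH25, only EYA4 had an interval apart from that of the next sub-cluster. The other members with at least 20 UMIs at HH25 were highest in nsCT, except HOXD12, as given above, and KIFAP3 and RFC1, which were highest in the mesenchyme. At HH29 KIFAP3 and PCDH10 were highest in sub-cluster 13 (543 and 40.6 CPM), HOXD12 in interdigit sub-cluster 12 (1682), RFC1 in cycling mesenchyme sub-cluster 16 (319) and CDCA7 in leukocytes (197).

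At HH31, 32 members had a column (14 and 18), and AQP1, PHEX, CORIN, RGS22, NDST4, DMRT2 and SLITRK4 were not analysed there. Of 9 Darkgrey members tested, 4 were called higher (MYLK, THY1, EYA4 and DAB2) and none lower, where 2.69% of all genes were called higher and 8.23% lower, and the log2 ratios of those tested ran from 0.74 to 3.19, with a median of -0.21 over all genes. EYA4 was at 41.3 CPM (32 UMIs) against 6.59 in the mesenchyme, 2.65 [1.85, 3.46], and stood apart from the next sub-cluster (14.5 CPM). DAB2 was at 16.8 against 1.85 CPM (13 and 7 UMIs), MYLK at 20.7 against 4.48 and THY1 at 14.2 against 4.75. EYA4 had no call at HH25, though it was called higher there in cells low in cycling scores (1.73). DAB2 had too few UMIs for a call at HH25. Of 16 Darkgreen members tested, GAS2 and FHOD3 were called higher and DACH2 lower (10.3 against 27.4 CPM, -1.41 [-2.66, -0.38]). DACH2 was at -0.76 against all other cells. With all other cells as the reference 7 members of each module were called higher at HH31. With only cells low in cycling scores 1 Darkgrey member was. These counts, too, are given without the share of all genes called.

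Other Darkgrey members were highest outside nsCT at HH31. GLT8D2, CRISPLD2 and DCLK1 were highest in the distal mesenchyme (28.8, 17.8 and 10.4 CPM) and NPR3 in interdigit sub-cluster 4 (14.9). MXRA8 and CNKSR2 were highest in skin (11.3 and 9.38, on 12 and 10 UMIs) and ADGRG6 in late chondrocytes (8.43, on 8 UMIs). CNKSR2 was close to its skin level in nsCT, at 9.04 CPM. For each of these members the interval of the highest level overlapped that of the next sub-cluster. GLT8D2 was at 16.8 CPM in nsCT and 9.75 in the mesenchyme (0.78 [-0.25, 1.73]), and DCLK1 had 0 UMIs in nsCT and 19 in the mesenchyme, too few for a call. PTX3, ANO5 and NPY were highest in nsCT (68.4, 83.9 and 7.75 CPM) with no call. KIFAP3 and ALC were highest in sub-cluster 6, which has no name here (490 and 129 CPM), and PCDH10, CCDC88A, CEP290, PARD3, RFC1, DACH2 and CDCA7 in cycling mesenchyme (14.3 to 116 CPM). The members called higher in at least 3 of the 4 comparisons were GLT8D2, MYLK, THY1, DCLK1 and FSTL4, and CNKSR2, EYA4, NPY, BDNF, FHOD3, GAS2 and MKX were called in 2. Some of these calls ended under an alternative. With clusters rebuilt without the genes of both modules GLT8D2 was at 0.89 at HH25 and 0.73 in HH29 sub-cluster 9, THY1 at 0.70 in sub-cluster 9 and CNKSR2 at 0.86 at HH25. Without technical replicate 1 THY1 was at 0.93 in sub-cluster 9. With all other cells as the reference, HH29 sub-cluster 4 among them, GLT8D2 was at 0.88 and THY1 at 0.24 in sub-cluster 9. In cells low in cycling scores the HH25 ratios were 0.64 for GLT8D2, 0.68 for MYLK, 0.51 for CNKSR2 and 0.99 for GAS2. EYA4 was called in sub-cluster 9 with rebuilt clusters (1.098), with all other cells as the reference (1.16), without technical replicate 1 (1.07) and in cells low in cycling scores (1.39).

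The nsCT sub-clusters of HH25 and HH31 each joined cells of a pair of the deposited broad clusters, and the members were also compared between these parts, a comparison chosen after the values were seen. At HH25 the 155 cells of broad cluster 1 had 94.4 CPM of HOXD12 and the 196 cells of broad cluster 2 had 45.9 (1.04 [0.20, 1.92]). At HH31 the 174 cells of broad cluster 1 were higher than the 110 cells of broad cluster 2 for GAS2 (305 and 191 CPM) and HOXD12 (1217 and 974) and lower for ALC (78.5 and 178), TCF12 (373 and 588) and KIFAP3 (367 and 518). Each of these intervals excluded 0, so the nsCT sub-clusters were not uniform for Darkgreen members. For EYA4 (42.4 and 39.6 CPM) and PTX3 (70.0 and 66.0) at HH31 the interval included 0.

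**Figure D5:**
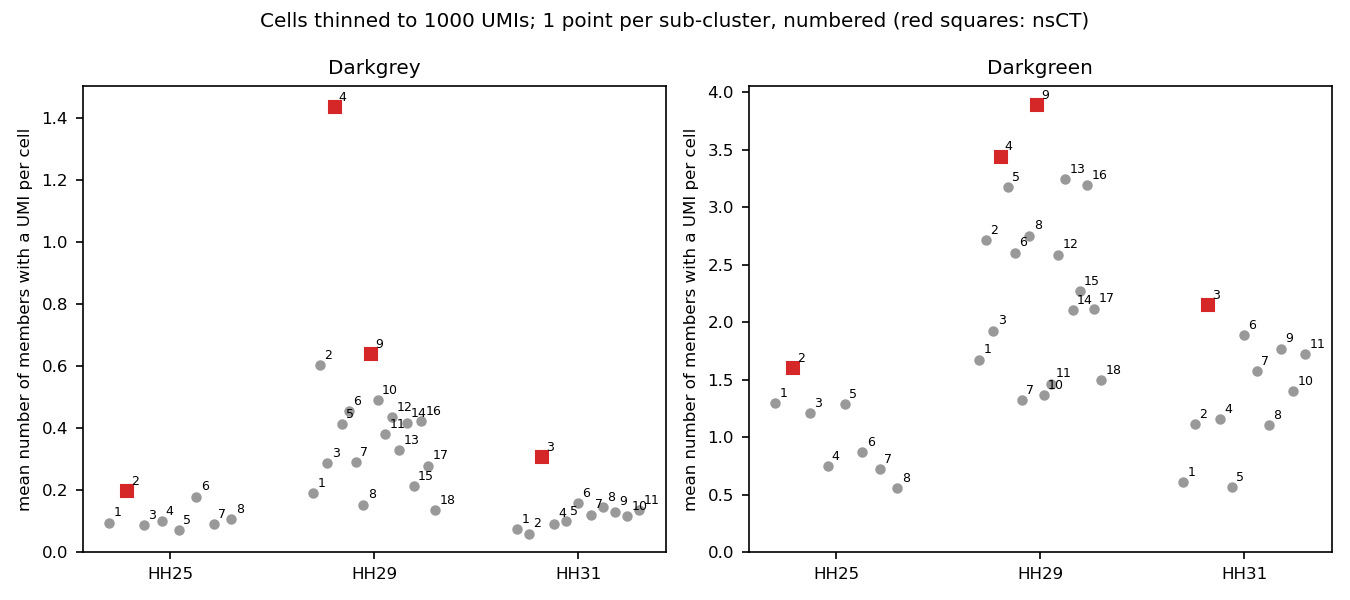
Mean number of members with a UMI per cell after thinning to 1000 UMIs, for Darkgrey (left) and Darkgreen (right), 1 point per deposited sub-cluster with its number, nsCT as red squares. HH29 sub-cluster 4 has 1.44 Darkgrey members per cell, with sub-cluster 9 next at 0.640, and for Darkgreen sub-cluster 9 (3.89) is above sub-cluster 4 (3.44).

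Counted per cell at equal depth, Darkgrey members were sparse outside HH29 sub-cluster 4. A cell of sub-cluster 4 held a UMI of 1.44 Darkgrey members on average, against 0.640 in sub-cluster 9 and 0.329 to 0.424 in the mesenchyme sub-clusters, and 40.2% of its cells held 2 or more while 25.6% held none. The mean was 0.197 in HH25 nsCT against 0.0964 in the mesenchyme and 0.180 in muscle, the next highest, and 0.306 in HH31 nsCT against 0.0603 to 0.159 in the other sub-clusters. Darkgreen members were seen in most cells, with means of 3.44 and 3.89 in HH29 sub-clusters 4 and 9, 1.60 in HH25 nsCT and 2.15 in HH31 nsCT. In each library an nsCT sub-cluster had the highest mean for both modules. The other sub-clusters ran from 0.560 to 1.30 Darkgreen members at HH25, from 1.32 to 3.25 at HH29 and from 0.565 to 1.89 at HH31. At HH29 the upper end was mesenchyme sub-cluster 13, close to nsCT sub-cluster 4.

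Genes of related pathways were counted from lists of which only the genes that the study's own tables name could be matched. Of the tendon and fibrous matrix list, 10 of 16 tested genes were called higher in HH29 sub-cluster 4 (6.02% of all genes) and none lower, 2 of 16 were higher in sub-cluster 9 (3.53%), and 4 of 12 were higher and 1 lower in each of HH25 and HH31 nsCT (2.66% and 2.69% of all genes higher). The study named these genes because they marked clusters or modules of these cells, and MKX is a member, so the counts are no independent evidence. KERA, a small leucine-rich proteoglycan, was among them with a log2 ratio of 4.08 in sub-cluster 4. Connective tissue transcription factors were mostly uncalled, with 2 of 7 higher and TWIST1 lower (-1.38) at HH25, 1 of 7 higher and MECOM lower (-1.92) in HH29 sub-cluster 4, 1 of 7 higher in sub-cluster 9 and 1 of 6 higher at HH31. In HH29 sub-cluster 4 the matrix list and Darkgrey were thus both above the mesenchyme for most members tested.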

How the data were processed

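The authors deposited 1 table of raw UMI counts per library, with cells in rows, beside the cluster numbers and cell cycle scores they computed. Reads of the 10x libraries were processed by the authors with Cell Ranger version 2 and those of HH29 with the Drop-Seq pipeline, against Ensembl Gallus_gallus-5.0. The cell cycle score was deposited per cell by the authors and was used only in an alternative.

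Cells with over 4 times the mean UMIs, under 20% of the median or over 10% mitochondrial UMIs (12 genes) were removed, leaving 5788 of 5982, 6806 of 6823 and 4583 of 4823. No doublet caller was run. Libraries held 13514494, 23846769 and 12867077 UMIs at HH25, HH29 and HH31. Cluster names came from the study's marker tables. Counts were summed per sub-cluster and scaled to 1000000. Ratios have exact conditional binomial intervals and shares Clopper-Pearson intervals, after thinning to 1000 UMIs (seed 11, 2 HH29 cells left out). A count of 0 was set to a floor of 3 for bounds. Python 3.11.15, scipy 1.17.1 and scanpy 1.11.5 were used, and the interval code was tested on simulated data. Members were named with their place of highest level where they had 20 UMIs, and those called higher in at least 2 comparisons or lower in any were given in full. Members and lists were chosen with earlier results of these data known. Symbols of all 39 members matched RefSeq. Alternatives were the reference cells, filters, weighting, left-out replicates, rebuilt clusters and cells low in cycling scores.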

Additional observations from a re-analysis of the deposited data

Results flagged for a closer look

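The log2 ratio of HOXD12 between nsCT and mesenchyme was 0.87 at HH31 and -1.86 at HH25, 2.73 apart and of opposite sign. The log2 ratio of KIFAP3 was 0.25 at HH31 and -1.20 in HH29 sub-cluster 4, 1.45 apart and of opposite sign. These differences between libraries were not tested, because each stage has 1 library. HH25 and HH31 share the 10x chemistry but differ in stage and dissection, which cannot be told apart, and for HH29 against HH31 the platform cannot be told apart from them either.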

How the results depend on the processing

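With all other cells as the reference in place of the mesenchyme, the members called higher numbered 8 in place of 4 (Darkgreen, HH29 sub-cluster 4), 4 in place of 2 (Darkgreen, HH29 sub-cluster 9), 7 in place of 4 (Darkgrey, HH31) and 7 in place of 2 (Darkgreen, HH31). At HH29 that reference also held the other nsCT sub-cluster. With a minimum of 5 UMIs the Darkgreen count at HH31 was 4. With clusters rebuilt from the counts without the genes of both modules it was 3 in place of 5 (Darkgrey, HH25), 2 in place of 5 (Darkgreen, HH25) and 1 in place of 2 (Darkgreen, HH31). The rebuilt nsCT clusters overlapped the deposited ones with a Jaccard index of 0.298 at HH25, 0.461 for HH29 sub-cluster 9 and 0.548 at HH31. HH29 sub-cluster 4 was matched by a cluster at 0.6 and by a smaller cluster of 90 cells at 0.057. Sub-cluster 9 of the HH31 mesenchyme was matched by no rebuilt cluster. With only cells low in S and G2M scores the number called higher at HH25 was 1 in place of 5 for Darkgrey. The 1 was EYA4, which had no call in the main setting. Of the 5, GLT8D2, MYLK and CNKSR2 fell below 2-fold, and DCLK1 and NPY had too few UMIs. The number was 2 in place of 5 for Darkgreen at HH25 and 1 in place of 4 for Darkgrey at HH31. That subset holds fewer cells, and 29 ratios had under 20 UMIs. The share of all genes called higher under each alternative is not printed here. A general rise or fall in calls is therefore not told apart from one in the members. Leaving out each HH29 technical replicate gave 17 to 18 (Darkgrey) and 4 (Darkgreen) in sub-cluster 4, and 4 to 5 and 2 in sub-cluster 9. Without replicate 2 the 4 Darkgreen members called in sub-cluster 4 include TCF12 and no longer FHOD3. Counts under the other settings (every barcode, ribosomal or mitochondrial genes left out, mean over cells) stayed within 1.5 times. Among called ratios 0 changed sign. Of 142 shares of cells with a UMI, 106 moved beyond their interval without thinning. No paired analysis was possible because the groups are single libraries without shared replicate numbers.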
